A study of Mus musculus with 4 samples.

Results

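The Nkx genes encode homeodomain transcription factors of the NK class, and 9 of them were followed across the primordia of the lung, esophagus, stomach and intestine of the mouse: Nkx2-1, Nkx2-2, Nkx2-3, Nkx2-5, Nkx2-6, Nkx3-2, Nkx6-1, Nkx6-2 and Nkx6-3. Members were chosen by family and not by level, and a probe was counted as a member's when its array accession matched a RefSeq transcript of that gene. By this rule 7 of the 9 genes had a probe, among 16995 genes with a probe of 1 symbol. They were covered by 8 of 41105 probes. Nkx3-2 and Nkx6-3 were matched by no probe and are not analysed here. Each of 6 genes had 1 probe and Nkx2-6 had 2. The Nkx2-1 probe was printed in 10 spots per array and each other probe in 1.

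The samples were total RNA of ICR embryos, an outbred laboratory stock, with no allele or treatment named, taken at embryonic day E11.5, counted from the vaginal plug as E0.5. There were 4 groups of 1 array each: lung, esophagus, stomach and intestine. The labels do not say how many embryos went into a sample, and the extraction protocol speaks of stomach for all 4; the organ was taken from the tissue label, which for stomach has an unusual spelling. With 1 array per organ no difference could be tested and no p-value is given, so that every fold below describes 1 array against another.

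Nkx factors bind DNA through the homeodomain, and many of the Nkx2 group recognise a core of AAGTG. In the embryo they divide fields of endoderm, splanchnic mesoderm and ventral neural tube into regions. Nkx2-1 specifies lung and thyroid endoderm. Nkx2-3 acts in the mesenchyme of midgut, hindgut and spleen. Nkx2-5 is best known in the heart and is also used in the pyloric sphincter and the spleen. Nkx2-6 is a gene of the pharyngeal endoderm and early heart. Nkx2-2 and Nkx6-1 pattern the ventral neural tube and the endocrine pancreas, and Nkx6-2 acts beside Nkx6-1 in the neural tube.

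The promoters of 4 members are shown, because each of these genes was highest in a different organ: Nkx2-1 in lung, Nkx6-1 in esophagus, Nkx6-2 in stomach and Nkx2-3 in intestine. The sequences are those of RefSeq on build GRCm38.p6, written 5′ to 3′ on the gene's own strand, with 250 bases before and 50 after the gene's start. They lie at chr12:56536859-56537158 (minus strand), chr5:101664662-101664961 (minus strand), chr7:139582748-139583047 (minus strand) and chr19:43612075-43612374 (plus strand). Capitals mark the GC box, GGGCGG on either strand.
Nkx2-1: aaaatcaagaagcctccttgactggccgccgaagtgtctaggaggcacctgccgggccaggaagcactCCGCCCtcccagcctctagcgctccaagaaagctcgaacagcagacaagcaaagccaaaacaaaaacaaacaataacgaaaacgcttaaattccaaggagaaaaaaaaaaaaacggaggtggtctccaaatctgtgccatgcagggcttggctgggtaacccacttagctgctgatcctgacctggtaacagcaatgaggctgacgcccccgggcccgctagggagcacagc
Nkx6-1: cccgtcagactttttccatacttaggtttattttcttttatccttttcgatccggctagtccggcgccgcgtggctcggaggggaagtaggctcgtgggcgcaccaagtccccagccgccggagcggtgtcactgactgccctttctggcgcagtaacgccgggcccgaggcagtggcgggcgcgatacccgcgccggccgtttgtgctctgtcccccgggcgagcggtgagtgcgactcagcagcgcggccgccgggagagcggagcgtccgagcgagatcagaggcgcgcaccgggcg
Nkx6-2: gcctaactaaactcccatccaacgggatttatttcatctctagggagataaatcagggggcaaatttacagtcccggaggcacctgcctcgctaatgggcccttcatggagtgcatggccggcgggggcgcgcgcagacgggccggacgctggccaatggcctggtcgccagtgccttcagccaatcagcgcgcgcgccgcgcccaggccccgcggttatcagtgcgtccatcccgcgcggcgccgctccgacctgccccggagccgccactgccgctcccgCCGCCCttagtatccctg
Nkx2-3: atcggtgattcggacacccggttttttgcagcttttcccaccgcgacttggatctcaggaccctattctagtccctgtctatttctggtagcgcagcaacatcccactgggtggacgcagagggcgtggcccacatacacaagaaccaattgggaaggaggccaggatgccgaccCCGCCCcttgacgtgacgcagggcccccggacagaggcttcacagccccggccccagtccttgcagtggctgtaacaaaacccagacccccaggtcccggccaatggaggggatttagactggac

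Of the 9 members, 7 had an entry in the promoter table, all but Nkx2-6 and Nkx6-3. The Nkx6-1 window held 40 CpG dinucleotides, 1.18 times the number its base composition gives, above 99.3% of 32817 promoters. The Nkx6-2 window held 32 (ratio 0.97, above 92.4% of promoters). The Nkx2-1 and Nkx2-3 windows held 12 and 15, with a ratio of 0.56 in each, against a median ratio of 0.38 over all promoters. The GC content of the member promoters was 51.7% to 67.3%, and its median over all promoters was 52.7%. The ratio was 0.79 for Nkx2-2, 0.76 for Nkx3-2 and 0.47 for Nkx2-5, so all 7 windows lay above the median and those of Nkx6-1 and Nkx6-2 were the highest of them. Letters were also searched on both strands for TNAAGTG, a core that Nkx2 factors recognise, TATAAA, the TATA box, and TAATTA, a general homeodomain core. TNAAGTG occurred in 3790 of 32817 promoters, TATAAA in 13.6%, TAATTA in 5.30% and GGGCGG in 35.6%. The GC box was in the promoters of Nkx2-1, Nkx2-2, Nkx2-3, Nkx3-2 and Nkx6-2. TNAAGTG was in the promoter of Nkx2-2 alone, clear of its GC box, and neither TATAAA nor TAATTA was in any of the 7. These matches describe letters in a window and no factor was measured at them.

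The unit of a level below is log2 processed signal minus the 75th percentile of the array. The 4 arrays lay on 1 slide and were read in 1 scan, and no spot was saturated. The 75th percentile of the signal was 32.0 on the lung array, 379 on the esophagus array, 320.2 on the stomach array and 991 on the intestine array. Spots well above background, by the flag of the scanner software, made up 39.0%, 69.3%, 67.9% and 74.0% of 43379 spots in the same order. The lowest level that passed this flag was therefore much higher on the lung array, at −2.39, than on the other arrays, at −5.75, −5.78 and −6.92. A gene below it entered at that lowest level or at its own, whichever was higher, and its fold is written "at least". The median SD over repeated spots of a probe was 0.07 to 0.10 on the log2 scale. A larger error came from the probes: the SD of the difference between 2 probes of a gene, over 2493 to 4694 genes, was 0.51 for esophagus over stomach, 0.75 for stomach over intestine, 1.04 for esophagus over intestine, and 1.20, 1.1 and 0.91 for lung over esophagus, stomach and intestine. A difference smaller than this SD is called within the probe spread.

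The labels were set against markers of each organ. Sftpc, Wnt2 and Tbx5 were highest on the lung array, Barx1, Six2 and Isl1 on the stomach array and Cdx2, Vil1 and Isx on the intestine array. For Wnt2 and Tbx5 this came with the scaling. As deposited, their signals were 390 and 358 on the lung array and 1284 and 2082 on the esophagus array. Cdx1, the remaining intestine marker, was well above background on the stomach array and not on the intestine array. Sox2, a factor of the foregut, was highest on the esophagus array, 1.38-fold over stomach (0.46 on the log2 scale), within the probe spread of 0.51. In such bulk samples fewer cells that express a gene and less RNA per cell cannot be told apart.

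Each of 5 members had 1 organ in which it exceeded all others by 2-fold or more, here called a leading organ: Nkx2-1 in lung, Nkx6-1 in esophagus, Nkx6-2 and Nkx2-5 in stomach, and Nkx2-3 in intestine. These are 5 of 7 measured members (71.4%), where 7.06% of 14506 genes had a leading organ. By organ, lung led for 4.45% of all genes, esophagus for 1.12%, stomach for 0.372% and intestine for 1.11%. At 4-fold 3 members remained, beside 1.11% of all genes: Nkx2-1 in lung (0.476% of genes), Nkx6-2 in stomach (0.0620%) and Nkx2-3 in intestine (0.262%), with none in esophagus (0.310%). The other 2 measured members, Nkx2-2 and Nkx2-6, were dim and showed no such organ. A gene under the lung array's lowest level of −2.39 in every organ could not have a leading organ. This limit held for the members, for all genes and for the lists below. The members were chosen with earlier results of these arrays known, so these shares stand beside each other as a description.

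**Figure D1:**
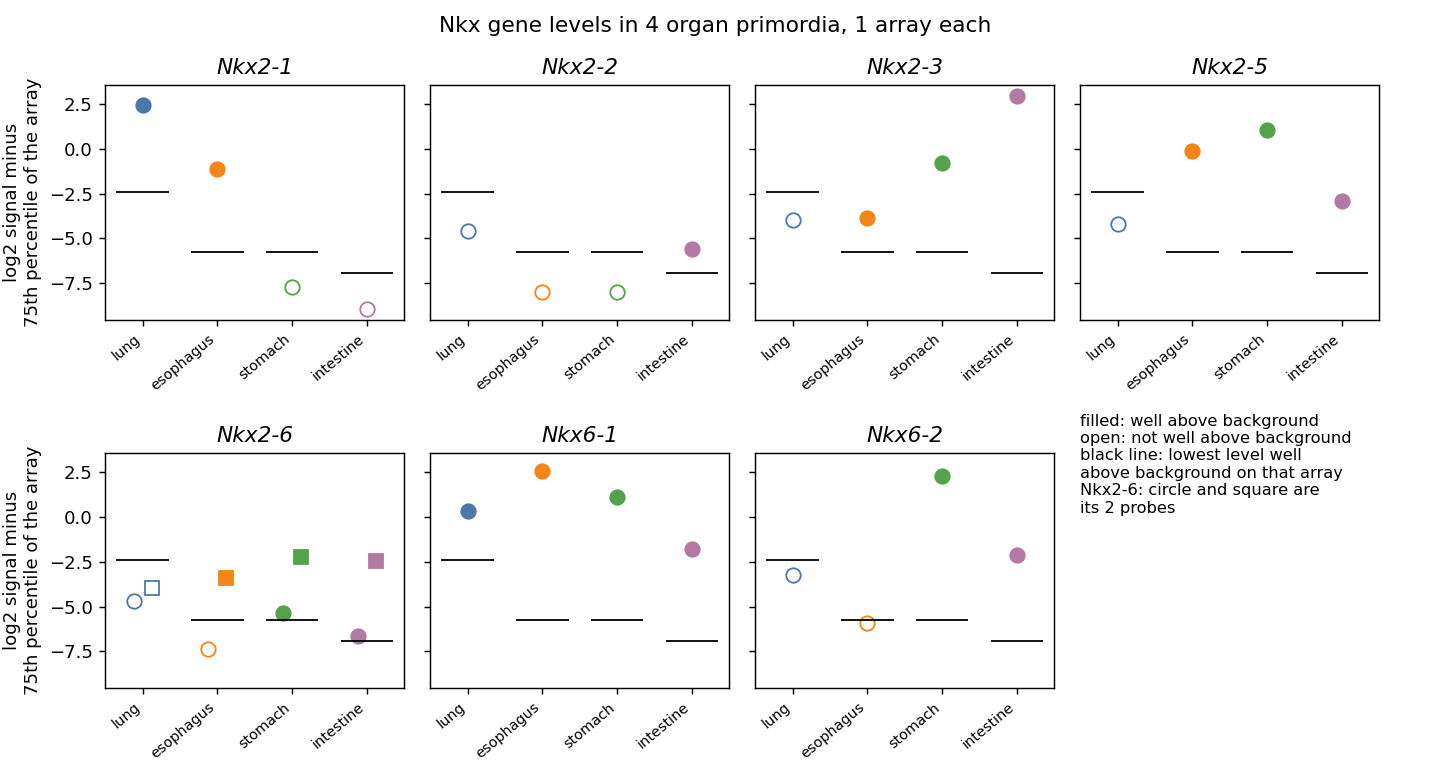
Level of each Nkx probe (log2 processed signal minus the 75th percentile of the array, vertical axis) on the lung, esophagus, stomach and intestine arrays, with filled points well above background, open points not, and black lines at the lowest level well above background on that array. Nkx2-1 leads in lung, Nkx6-1 in esophagus, Nkx2-5 and Nkx6-2 in stomach and Nkx2-3 in intestine, and 5 of the 7 genes lie below the lung array's line of −2.39 in lung.

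Of the 7 members, the lung array showed 2 well above background (28.6%), the esophagus and stomach arrays 5 each (71.4%) and the intestine array 6 (85.7%). Of all 14506 genes seen on at least 1 array, the shares were 65.7%, 91.5%, 92.2% and 98.4%. Nkx6-1 was the only member well above background in all 4 organs. Nkx2-3, Nkx2-5 and Nkx2-6 were well above background in the 3 gut segments and not in lung, Nkx6-2 in stomach and intestine, Nkx2-1 in lung and esophagus, and Nkx2-2 in intestine.

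Nkx2-1, the factor of lung and thyroid endoderm, was present on the 2 anterior arrays. Its 10 spots had processed signals of 168 to 183 on the lung array and 158 to 195 on the esophagus array. The spots kept gave 1.35 to 1.77 on the stomach array (9 spots) and 1.84 to 2.46 on the intestine array (8 spots), where the negative control spots had medians of 1.44 and 2.03. Lung and esophagus did not overlap with the other two in any spot that was kept. The level was 2.47 ± 0.04 in lung and −1.10 ± 0.08 in esophagus (SD over 10 spots), an 11.9-fold difference (3.57 on the log2 scale) that lay outside the probe spread of 1.20. Over stomach the gene was at least 303.5-fold higher in lung and at least 25.5-fold higher in esophagus. Over intestine the bounds were 672.6-fold for lung and 56.5-fold for esophagus.

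As deposited, the Nkx2-1 signal averaged 178 on the lung array and 176 on the esophagus array, a ratio of 1.01. The difference between these organs thus came from the scaling, that is from 75th percentiles of 32.0 in lung and 379 in esophagus. The spike-in spots, RNA added in fixed amounts, had a median signal of 656 on the lung array and 14993 on the esophagus array, and centring on them gave 23.0-fold in place of 11.9-fold. With normexp background correction it was 4.72-fold. The absence of signal in stomach and intestine did not depend on the scaling.

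**Figure D2:**
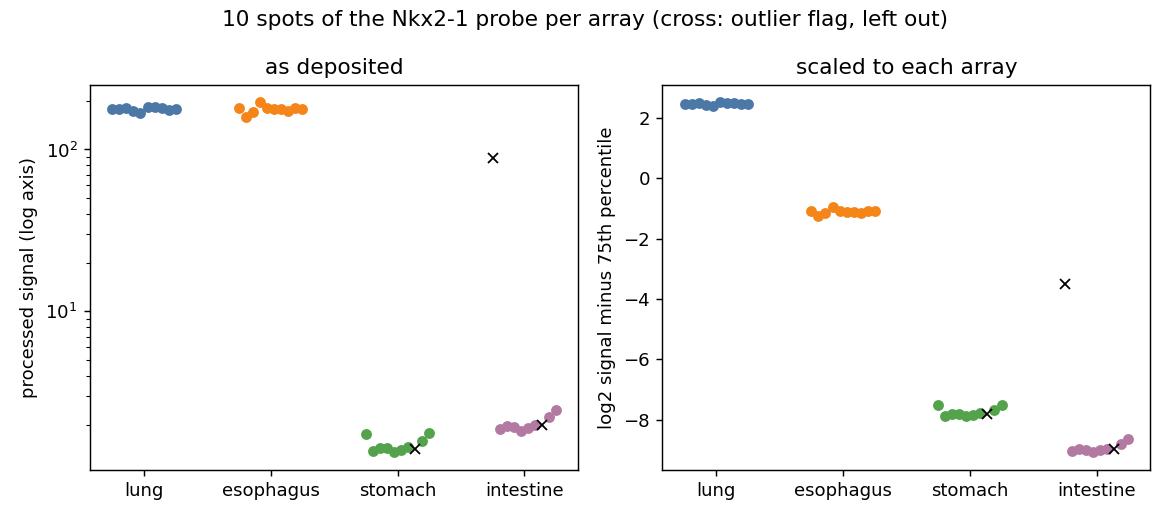
The 10 spots of the Nkx2-1 probe on each array, as deposited processed signal (left, log axis) and as level relative to the 75th percentile (right, log2); crosses are spots with an outlier flag, left out of the level. Lung at 178 and esophagus at 176 coincide as deposited and separate to 2.47 and −1.10 after scaling, and 1 flagged intestine spot stands at 88.1.

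Of the 3 Nkx2-1 spots with an outlier flag, 1 was bright. It lay on the intestine array, with a signal of 88.1 (level −3.49), and the next brightest spot of that probe there had 2.46. The authors' series table holds −3.49 for this probe in intestine, the level of that spot, against −7.74 for stomach. With the flagged spot left out, the intestine level was −8.94 and not well above background.

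Other lung genes were also seen on the esophagus array. Sftpc, surfactant protein C, stood at 2.14 in lung and −1.75 in esophagus, Wnt2, a signal of lung mesenchyme, at 3.61 and 1.76, and Tbx5, a factor of lung mesenchyme, at 3.48 and 2.46. Among thyroid genes, Pax8 was not well above background on any array. On the esophagus array the thyroid genes Foxe1, Tg and Tshr were dim, at −3.02, −3.34 and −4.16, and on the lung array none of these 3 was well above background. These levels lie under the lung array's lowest level of −2.39, so no order with lung could be read. Tg was also well above background in stomach (−4.08) and intestine (−3.93), and Foxe1 and Tshr in neither. Of 8 pharynx and thyroid markers, 2 were well above background on the lung array (65.7% of all genes) and 7 on the esophagus array (91.5%). The stomach array showed 4 (92.2%) and the intestine array 3 (98.4%). The summed signal of these markers relative to the 75th percentile was 6.70, 14.6, 1.25 and 1.05. Such sums, here and below, include probes not well above background. Most of the lung and esophagus sums came from Tbx1, at levels of 2.48 and 3.66. The part of neighbouring tissue in the esophageal Nkx2-1 signal was not tested.

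A list of 20 partners and targets of Nkx2-1 in lung and thyroid had 17 measured genes. Of these, 3 (17.6%) had a leading organ, which was lung each time, beside 4.45% of all genes for lung. They were Sftpc (14.7-fold over esophagus), Sftpa1, another surfactant protein (10.3-fold), and Gata6, an endodermal zinc finger factor (2.21-fold). The Gata6 margin, 1.14 on the log2 scale, was within the probe spread of 1.20. As deposited, Sftpc read 141 on the lung array and 113 on the esophagus array, so its lead came with the scaling. With levels under −2.39 set to that value, the difference between lung and the mean of the rest had a median of 0.42 in the list and 0.00 over all genes. Foxa2, a forkhead factor that acts upstream in endoderm, was at 2.88 in both lung and esophagus. Sftpb and Sftpd, surfactant genes of later lung, were not well above background in any organ.

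Nkx6-1, known from motor neuron progenitors and beta cells, was highest in esophagus. Its processed signal read 40.3 for lung, 2267 for esophagus, 699.6 for stomach, 290.3 for intestine. The levels were 0.33, 2.58, 1.13 and −1.77 in the same order, so esophagus was on top and intestine at the bottom. Esophagus was 2.74-fold above stomach (1.45 on the log2 scale), 4.75-fold above lung and 20.4-fold above intestine, each outside the probe spread. Stomach over lung was 1.74-fold (0.80), within the probe spread of 1.1. Lung over intestine was 4.30-fold and stomach over intestine 7.46-fold. In the order esophagus, stomach, lung, intestine, only the neighbours stomach and lung did not differ beyond the spread. The place of lung in this order depended on the scaling. As deposited, lung had the lowest signal, and with spike-in scaling lung, at −4.02, stood above stomach, at −4.16.

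The margin of Nkx6-1 stayed at least 2-fold under all 12 other settings, from 1.25 with median centring to 1.70 without scaling (log2). Some of these could not change it. They were the probe mean, no filter, only probes well above background on all arrays, and leaving out the lung array. In a list of 17 ventral neural tube genes, of 15 measured, 1 had a leading organ (6.67%), Isl1, in stomach. The median difference between esophagus and the mean of the rest was 0.00 in the list and −0.03 over all genes. For it, levels under the lung array's lowest level were set to that level. Olig2, Dbx1, Dbx2, Irx3, Pax6, Pax7, Lhx3, Sox1 and Sox3 lay under it in every organ, so each entered with a difference of 0. They were most of the measured list, so its median was fixed by this limit and cannot show whether the list was higher in esophagus. None of them could have a leading organ either, which limits the share of 6.67%. Among the neural tube markers, Dbx1 and Pax7 were highest on the esophagus array, at −3.04 and −2.50, both under the lung array's lowest level, and Olig2, Sox3 and Pax6 were not well above background there. Of 6 neural tube markers, 0 were well above background on the lung array (65.7% of all genes) and 3 on the esophagus array (91.5%). The stomach array showed 4 (92.2%) and the intestine array 4 (98.4%). The summed relative signal of these markers, with probes not well above background included, was 0.438, 0.360, 0.151 and 0.0922. The lung sum came only from such probes and does not rank lung first. The part of neural tube tissue in the esophageal Nkx6-1 signal was not tested. Of 7 pancreas markers, 3 were well above background on the esophagus array, beside 91.5% of all genes. The 3 were Gcg, the glucagon gene (1.26), Ins2, an insulin gene (−1.54), and Cpa1, an acinar enzyme (−3.23). The pancreas factors Pdx1 and Ptf1a were not well above background there.

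Nkx6-2, a neural and glial homeobox gene, was highest in stomach. The processed signal was 1581 in stomach and 228 in intestine, and 3.40 in lung and 6.20 in esophagus, where it was not well above background. The level of 2.30 in stomach was 21.4-fold above −2.12 in intestine (4.42 on the log2 scale, probe spread 0.75). Over esophagus it was at least 266.3-fold higher and over lung at least 25.9-fold. Intestine was at least 12.4-fold above esophagus and at least 1.21-fold above lung, a bound within the probe spread. The gene thus separated stomach and intestine from esophagus, while its level in lung could not be placed below that in intestine. With normexp background correction stomach was at 2.12 and intestine at −1.80. The next organ was then lung, where the gene was not well above background, and the margin over it was 6.22-fold.

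A list of 13 stomach epithelium genes, drawn up for Nkx6-3, which had no probe, was read beside Nkx6-2. Of 11 measured genes, 2 (18.2%) had a leading organ, beside 7.06% of all genes. Agr2, a secretory cell gene, was at least 5.91-fold higher in stomach than in lung, the next organ by its bound, and Cldn18, a claudin of stomach and lung, was 2.30-fold higher in lung than in stomach. The gastrin gene Gast and the somatostatin gene Sst were dim in all organs, with levels in stomach of −3.40 and −3.92. The mucin gene Muc5ac was at −3.84 in stomach, and Gkn1 was not well above background in any organ.

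Nkx2-5, the heart and pylorus factor, had processed signals of 1.74 (lung), 356 (esophagus), 663 (stomach) and 132 (intestine). It was not well above background in lung. Stomach, at 1.05, was 2.20-fold above esophagus at −0.09 (1.14 on the log2 scale, probe spread 0.51) and 15.6-fold above intestine at −2.91. Esophagus was 7.08-fold above intestine. Over lung, stomach was at least 10.9-fold and esophagus at least 4.94-fold higher. The order was therefore stomach, esophagus, intestine, with each step outside the probe spread. The step from stomach to esophagus was 1.86-fold as deposited, without scaling.

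Heart muscle genes were read beside Nkx2-5, since the esophagus array carried them. All 9 heart markers were well above background in esophagus, where 91.5% of all genes were. In stomach 7 were (92.2% of genes), in intestine 7 (98.4%) and in lung 3 (65.7%). The heart markers' summed signal relative to the 75th percentile was 112 in esophagus, 8.60 in lung, 1.88 in stomach and 0.971 in intestine. Nkx2-5 and the heart markers thus peaked on different arrays: in stomach, where Nkx2-5 was highest, Nppa, the atrial natriuretic peptide gene, stood at −4.34 and Myh6, the atrial myosin chain, at −4.53, against 1.15 and 2.04 in esophagus. The heart markers not well above background in stomach were Csrp3 and Myl2. What share of the esophageal Nkx2-5 signal came with heart tissue was not tested.

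Of 18 partners and targets of Nkx2-5 in heart and gut, 17 were measured and 11 (64.7%) had a leading organ, beside 7.06% of all genes: esophagus for 5, lung for 4, stomach for 1 and intestine for 1. The esophagus genes were the sarcomere and heart genes Myl7, Actc1, Nppa, Ankrd1 and Tbx20. The lung genes were Gata5, Gata6, Tbx5 and Srf. Isl1, a LIM homeobox factor, was 3.16-fold above lung in stomach, and Hand1, a mesodermal factor, at least 36.4-fold higher in intestine. The median difference between stomach and the mean of the rest was −0.65 in the list and 0.00 over all genes. Of the list, only Isl1 shared the organ of Nkx2-5 at this limit.

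The pyloric sphincter list, 10 genes and all measured, had 4 genes with a leading organ, where 7.06% of all genes had one. Stomach led for 2 of them, Six2, a homeobox gene of pyloric mesenchyme (4.88-fold over esophagus), and Isl1, where it led for 0.372% of all genes. Lung led for the BMP receptor gene Bmpr1b (3.14-fold over stomach) and intestine for Hand1. The list's median difference between stomach and the mean of the rest was −0.17. Sox9 was highest in lung, at 1.96, with 0.49 in stomach, and the BMP antagonist Nog was at −0.54 in both esophagus and stomach.

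Nkx2-3, the gene of gut mesenchyme, was graded along the gut tube. Its processed signal was 2.05 (lung), 26.6 (esophagus), 184 (stomach) and 7849.7 (intestine). Intestine, at a level of 2.99, was 13.8-fold above stomach at −0.80 (3.79 on the log2 scale, probe spread 0.75), 113-fold above esophagus at −3.83 and at least 41.6-fold above lung. Stomach was 8.20-fold above esophagus and at least 3.02-fold above lung. Every step from esophagus to stomach to intestine was outside the probe spread, and between lung and esophagus no order could be given. Liver markers were also highest on the intestine array. Their summed relative signal was 58.4 there, 25.2 in lung, 9.53 in esophagus and 3.26 in stomach. All 5 were well above background in intestine, as were 98.4% of all genes. The lung array showed 2 (65.7% of genes), the esophagus array 3 (91.5%) and the stomach array 4 (92.2%). Afp, alpha-fetoprotein, was at 5.63 and Alb, albumin, at 2.98 in intestine. Their part in the intestinal Nkx2-3 signal was not tested.

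Madcam1, an adhesion molecule gene that Nkx2-3 is known to regulate, was at −1.77 in intestine, −2.71 in stomach and −4.56 in esophagus and not well above background in lung. Like Nkx2-3 it was highest in intestine, at least 1.54-fold above the lung bound, which was within the probe spread of 0.91. Among the 3 gut segments Madcam1 had the same order as Nkx2-3. In the list of spleen and splanchnic mesoderm, 12 of 13 genes were measured and 1 (8.33%) had a leading organ, Barx1, a factor of stomach mesenchyme, in stomach. Intestine led for 0 genes of this list and for 1.11% of all genes. Tlx1, a spleen homeobox gene, was well above background only in stomach (−1.71). Tcf21, a mesodermal bHLH factor, was highest in intestine at 3.06, 1.71-fold over stomach. The median difference between intestine and the mean of the rest was −0.11 in the list and 0.00 over all genes.

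The 2 remaining genes were dim. Nkx2-6 had a bright and a dim probe to the same transcript. By the brighter, the processed signal was 2.08 (lung), 36.1 (esophagus), 68.4 (stomach) and 182 (intestine), which gave levels of −3.39 in esophagus, −2.23 in stomach and −2.44 in intestine. By the other, it was 1.22, 2.30, 7.67 and 9.84, well above background in stomach and intestine. Stomach was 2.25-fold above esophagus by the brighter probe (1.17 on the log2 scale, outside the probe spread of 0.51). Stomach over intestine was 1.16-fold, within the spread, and on the dimmer probe stomach was at −5.38 and intestine at −6.66. In lung the gene was not well above background, and the lung array's lowest level of −2.39 lies among the levels of the other organs, so no order with lung could be read.

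Nkx2-2 was well above background on the intestine array alone, with a processed signal of 20.8 and a level of −5.57. On the other arrays the signal was 1.34 in lung, 1.5 in esophagus and 1.25 in stomach, near the medians of the negative control spots, 1.60, 1.81 and 1.44. Because the intestine level is below the lung bound and close to the others, the folds were at least 1.13 over esophagus and 1.15 over stomach, and none could be given over lung. As deposited, without scaling, intestine was at least 2.96-fold higher than the bound of esophagus, the next organ. Pancreas markers were read beside it. Cpa1, an acinar enzyme, was at 1.24 in intestine, against −2.85 in stomach, and Ptf1a, a pancreas factor, was well above background only in intestine, at −3.69. Pdx1 was at −4.08 in intestine and −3.65 in stomach. All 7 pancreas markers were well above background in intestine, as were 98.4% of all genes. In stomach 5 were (92.2% of genes), in esophagus 3 (91.5%) and in lung 2 (65.7%). Summed relative signal of the pancreas markers was 3.66, 3.36, 2.88 and 1.27 in that order. Their part in the Nkx2-2 signal was not tested.

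In the list of 20 pancreas bud and endocrine genes, 18 were measured, and 1 (5.56%), Isl1 in stomach, had a leading organ. The median difference between intestine and the mean of the rest was 0.00 in the list and over all genes. Pdx1, Ptf1a, Neurog3, Pax6, Ins1, Iapp, Ghrl and Prox1 lay under the lung array's lowest level in every organ. Set to that level, each entered with a difference of 0. The list's median fell on these genes, so it cannot show whether the list differed in intestine. Nor could any of these genes have a leading organ, which limits the share of 5.56%. Neurog3, the endocrine progenitor factor, was at −5.26 in stomach and −5.39 in intestine, and Neurod1 and Pax4 were not well above background in any organ.

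**Figure D3:**
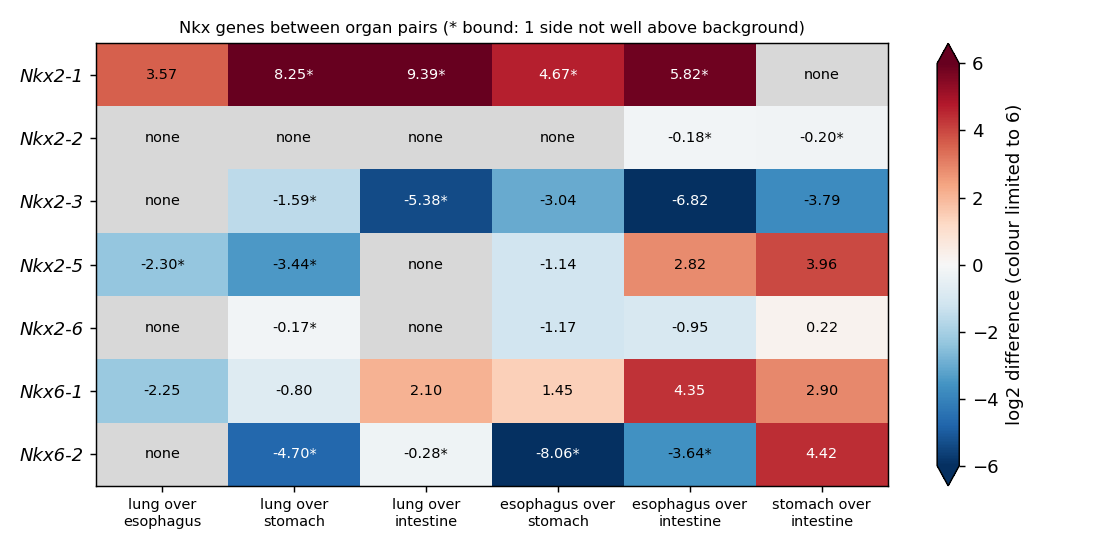
Difference in level (log2, first organ over second, colour and printed value) of each measured Nkx gene for the 6 organ pairs; an asterisk marks a bound where 1 side was not well above background, and grey cells have no fold. Nkx2-1 is positive and Nkx2-3 negative wherever they have a value, and between esophagus and stomach 4 genes are higher in stomach and 2 in esophagus.

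Read by organ pair, all 6 members with a fold were at least 2-fold apart between esophagus and stomach, where 9.90% of 13732 genes were. Nkx2-1 and Nkx6-1 were higher in esophagus (5.63% of genes), and Nkx2-3, Nkx2-5, Nkx2-6 and Nkx6-2 in stomach (4.27%). Between esophagus and intestine 5 of 7 were apart (20.6% of genes): Nkx2-1, Nkx2-5 and Nkx6-1 higher in esophagus (11.9%), Nkx2-3 and Nkx6-2 higher in intestine (8.71%). Between stomach and intestine 4 of 6 were apart (12.4%): Nkx2-5, Nkx6-1 and Nkx6-2 higher in stomach (7.52%), Nkx2-3 higher in intestine (4.87%). Nkx2-3 was thus higher in the more posterior organ of each gut pair, and Nkx6-1 in the more anterior.

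With lung on one side fewer members had a fold. Between lung and esophagus 3 of 3 were at least 2-fold apart (25.6% of genes), Nkx2-1 higher in lung (16.2%) and Nkx2-5 and Nkx6-1 higher in esophagus (9.42%). Between lung and stomach 4 of 6 were apart (23.9%), Nkx2-1 higher in lung (14.0%) and Nkx2-3, Nkx2-5 and Nkx6-2 higher in stomach (9.87%). Between lung and intestine 3 of 4 were apart (20.6%), Nkx2-1 and Nkx6-1 higher in lung (12.2%) and Nkx2-3 higher in intestine (8.40%). As deposited, without scaling, the Nkx6-1 signal was higher in intestine (290.3) than in lung (40.3). These pairs share arrays and are not independent of each other.

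**Figure D4:**
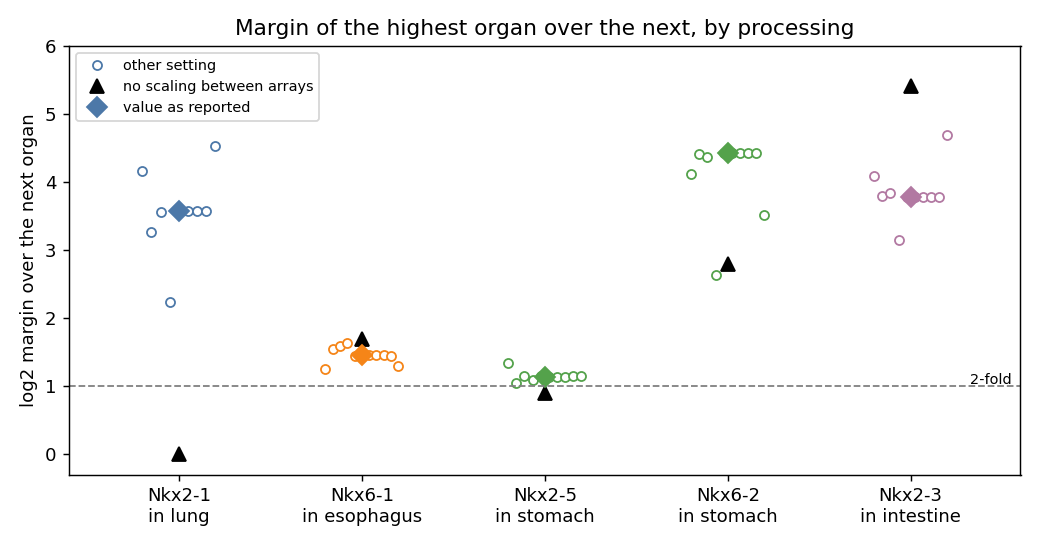
Margin of the highest organ over the next (log2, vertical axis) for the 5 genes with a leading organ; diamonds are the values as reported, open circles the other settings, triangles the deposited signals without scaling, and the dashed line 2-fold. Nkx2-1 in lung ranges from 0.00895 without scaling to 4.52 with spike-in scaling, while Nkx6-1 in esophagus stays between 1.25 and 1.70.

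The rest of the NK class was read from a list of 27 other homeobox genes. Of these, 23 had a probe and 15 were well above background on at least 1 array. A leading organ was found for 2 of the 15 (13.3%), beside 7.06% of all genes, and it was stomach for both: Barx1 (11.9-fold over esophagus) and Msx1, a factor of BMP-responsive mesenchyme (2.03-fold over intestine). Nkx2-4, a close relative of Nkx2-1, had levels of −4.03 (esophagus), −3.55 (stomach) and −3.76 (intestine). Nkx1-2 had −4.83, −3.66 and −4.24 in the same order. Neither was well above background in lung, and neither had a leading organ. Hlx, a homeobox gene of visceral mesenchyme, was highest in intestine (0.55), 1.86-fold over stomach, and Hhex, of liver and thyroid endoderm, in lung (−0.32), 1.09-fold over intestine.

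Genes with the most similar profile were found as the smallest root mean square difference over the 4 organs, after levels under −2.39 were set to that value and each profile was centred on its mean, among 10961 other genes. Nearest to Nkx2-1 were Sftpc (0.27), Mia (0.27) and the integrin chain gene Itgb3 (0.33). Nearest to Nkx6-1 were Krt15, a basal keratin (0.21), Frem2, a basement membrane protein (0.42), and Tnnt1, a troponin of slow muscle (0.42). Nearest to Nkx2-5 were Gjd3, a gap junction protein (0.42), the dopamine receptor gene Drd3 (0.48) and Ecm1, a matrix protein (0.50).

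**Figure D5:**
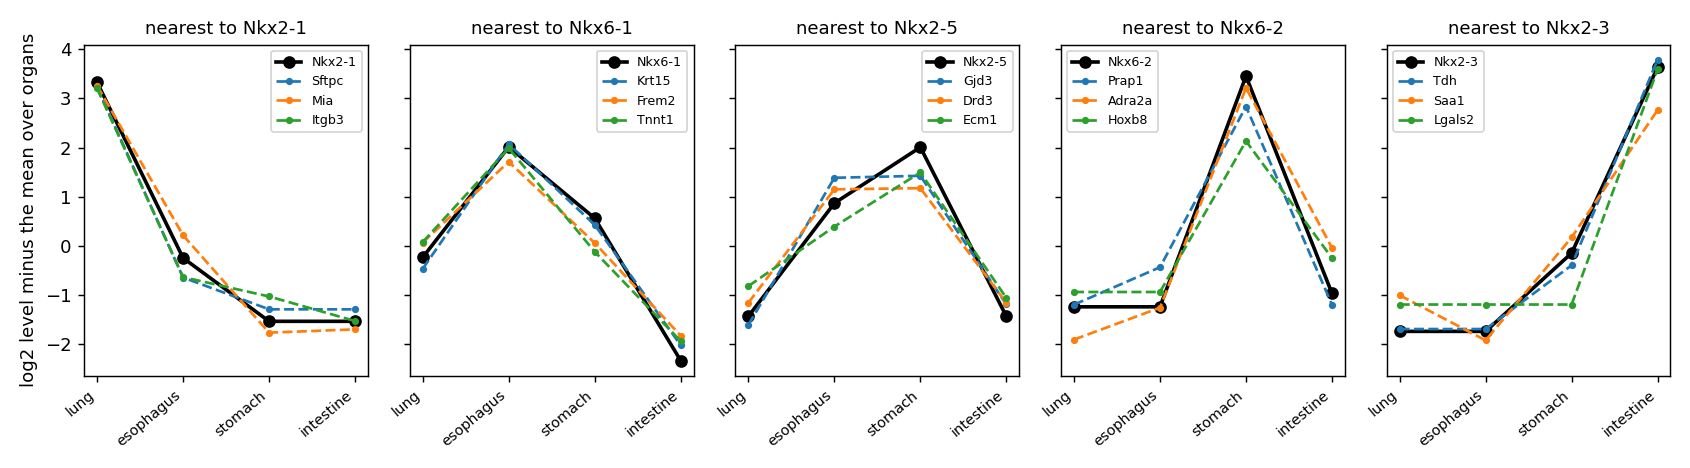
Profiles over lung, esophagus, stomach and intestine (log2 level minus the mean over organs, vertical axis) of 5 Nkx genes (black) and the 3 genes of most similar profile for each (dashed). The closest match is Tdh to Nkx2-3, at a root mean square difference of 0.15, and the loosest is Hoxb8 to Nkx6-2, at 0.78.

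Nearest to Nkx6-2 were Prap1 (0.52), the adrenergic receptor gene Adra2a (0.58) and Hoxb8 (0.78), and nearest to Nkx2-3 were Tdh, threonine dehydrogenase (0.15), Saa1, a serum amyloid (0.60), and Lgals2, a galectin (0.65). Nkx2-6 had a profile flat at the lung array's lowest level but for 0.17 in stomach, so its nearest genes carry no information, and Nkx2-2 was below that level in every organ. The points of a profile are 4 arrays, and the likeness has no replicate. Under median centring 14 of the 18 nearest genes were shared with this list, without the lung array 3 of 18, and by Pearson's r over the 4 organs none.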

How the data were processed

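Total RNA of 4 samples was labelled with Cy3 by a low-input amplification kit and hybridised in 1 colour, per the labels' protocols. The software was Agilent Feature Extraction 10.5.1.1 (protocol GE1_105_Dec08, array design 014868, build mm8), per the file headers. The deposited spot signal is a linear intensity from which that software had subtracted background and a spatial trend, per the file headers. The series table the authors deposited is on a log2 scale: it matched log2 processed signal minus the 75th percentile (r = 0.99996 to 0.99998 across probes), with column medians of −3.56 (lung), −2.97 (esophagus), −3.17 (stomach) and −3.47 (intestine). What is said here of its scaling rests on this match.

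Control spots and spots with a feature outlier flag were left out, repeated spots were averaged on the log2 scale and the 75th percentile over probes was subtracted. Accessions without version were matched to RefSeq genes of GRCm38.p6, which gave 1 symbol to 24338 of 41105 probes (59.2%). A gene took its brightest probe. Folds of at least 2 and 4 were counted. Named were all members, the 3 genes of most similar profile and up to 5 genes per list, with every gene of a count of 5 or fewer; further list genes and markers, such as Madcam1, Hlx, Hhex and Foxa2, were chosen after their values were seen. The members and lists were chosen with earlier results of these data known. Scaling, background correction, probe summary, filters, outlier flags and leaving out the lung array were varied; the deposited signal without scaling and a scaling on 7 spike-in probes were added after the data were seen. The files hold no mean spot signal, so normexp used the median spot signal. Calculations used Python 3.11.15, numpy 2.4.6 and pandas 2.3.3, and R 4.3.3 with limma 3.58.1, and were tested on simulated data. With 1 array per organ, array number sets the precision.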

Additional observations from a re-analysis of the deposited data

How the results depend on the processing

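Of 174 values recomputed under another setting, 151 moved by less than the SD between probes of a gene or, for counts, by at most 1.5 times, and 23 moved by more; none changed the sign of a margin of at least 2-fold. The same 5 genes had the same leading organ (2-fold or more above all others) under median centring, quantile normalization, normexp, a 75th percentile taken from probes detected on all arrays, the authors' series table, the mean of all probes, no filter, kept outlier spots and spike-in scaling. Under these settings 4.24% (normexp) to 14.7% (no filter) of all genes had a leading organ. Some of these settings could not change the result. The 5 genes have 1 probe each and a next organ well above background. The probe mean and the filter therefore left their margins as they were. The authors' series table has the same scaling. Such repeats are among the 151 values. Without the lung array Nkx2-1 was highest in esophagus. With only probes well above background on all arrays 1 member, Nkx6-1, was left, so the counts were 1 at 2-fold and 0 at 4-fold, and 1 for each organ pair but lung and stomach, at 0; fewer genes tested is the cause. Without scaling the count was again 5 of 7, but 72.7% of 14506 genes then had a leading organ, a share near that of the members. Nkx2-1 in lung (margin 0.00895) and Nkx2-5 in stomach (0.90) fell under 2-fold. Nkx2-2 (1.57) and Nkx2-6 (1.41), both in intestine, passed it. Margins on the log2 scale without scaling were 5.42 for Nkx2-3 and 2.79 for Nkx6-2. With spike-in scaling they were 4.69 for Nkx2-3 and 3.52 for Nkx6-2. Under normexp they were 2.24 for Nkx2-1 and 2.64 for Nkx6-2, the latter over lung in place of intestine. The Nkx2-6 margin in stomach, 0.17, was −1.41 with the mean of all probes, −1.41 without scaling and −1.25 under normexp. With no filter 5 members were 2-fold apart between lung and esophagus and 6 between lung and intestine, and without scaling 7 between lung and intestine. The share of all genes was not computed for these pair counts. Of the 18 nearest genes, 0 were shared by Pearson's r and 3 without the lung array. The cause of the other shifts was not tested. No paired analysis was possible because each organ has 1 array. Signal over background limits the lung array most: levels under −2.39 there cannot be ordered.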
